A study of Homo sapiens with 49 samples.

Results

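The H3K4me1 landscape of T-47D cells, a human breast ductal carcinoma line, was compared between vehicle (DMSO) and 17beta-estradiol (E2) by classing every peak of both H3K4me1 lists as shared, DMSO-only or E2-only. Peaks of the 2 lists that overlapped by at least 1 bp were joined into shared regions, and the remaining peaks kept their own coordinates. The lists held 8368 peaks of the 528044 in all lists of the series, 6408 under DMSO and 1960 under E2, and gave 6961 regions. Cells of both groups had spent 5 days in hormone-depleted media and then received DMSO or 10 nM E2 for 8 h before fixation. Each treatment was a single ChIP-seq library made with the same H3K4me1 antibody, so no difference between the treatments has a replicate check. RNA polymerase II (RNAPII) was mapped in T-47D in 2 libraries per treatment, but after 1 h of E2 or DMSO, so it precedes the H3K4me1 measurement in time. Ishikawa, an endometrial adenocarcinoma line given the same treatments, and T-47D H3K4me3 serve as comparisons.

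Monomethylation of histone H3 lysine 4 marks enhancers, both active ones and ones that are primed, and flanks active promoters, whereas trimethylation of the same residue sits at promoters. The mark is laid down mainly by the methyltransferases KMT2C and KMT2D and can be removed by demethylases such as KDM1A (LSD1). In luminal breast cells, estrogen receptor alpha (ER), the product of ESR1, binds mostly at distal enhancers together with the pioneer factors FOXA1 and GATA3, and E2 turns the bound receptor into an activator of genes such as GREB1, PGR and MYC.

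The label of the line was checked against luminal and basal markers. All 10 luminal marker genes, from ESR1, GATA3 and FOXA1 to the keratins KRT8, KRT18 and KRT19, had an H3K4me3 peak at a start site under both treatments, and all 10 were the nearest gene of at least 1 H3K4me1 region under DMSO (62 regions) and 6 of them under E2 (13 regions). Of the 7 basal or mesenchymal markers, 4 had H3K4me3 at a start site, while KRT5, KRT14 and TP63 had none. In Ishikawa under DMSO, 8 of the 10 luminal and 3 of the 7 basal or mesenchymal markers had H3K4me3 at a start site. These H3K4me3 counts thus differ little between the lines. A single H3K4me1 region, near TP63, lay by these 7 genes under DMSO and 0 did under E2.

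The sequences around the summits of 8 regions are shown first, because the results turn on what kind of element each class holds. Sequences are the forward strand of GRCh37, 200 bases each with the summit in the middle. Capitals mark matches on either strand to 6 short motifs, namely the estrogen response element (GGTCA and TGACC around any 3 bases), its single-arm site AGGTCA, forkhead TGTTTAC, AP-1 TGANTCA, the site of GATA factors as AGATAA, and AP-2 (GCC and GGC around any 3 bases). A response element can also hold a single-arm site, and such a match counted for both. The shared examples lie in introns of CACNA2D2, a calcium channel subunit gene, and of SORL1, a sorting receptor gene, where the window is made up of short GT-rich repeats. How such repeats bear on its peaks was not tested. The DMSO-only examples lie in introns of the estrogen receptor gene ESR1 and of its targets GREB1 and PGR. The E2-only examples lie in an intron of EFNA5, an ephrin ligand gene, and in intergenic sequence 25672 bp from IGSF3 and 341637 bp from GATA3, each the nearest protein-coding gene.
CACNA2D2, shared, chr3:50482146-50482345: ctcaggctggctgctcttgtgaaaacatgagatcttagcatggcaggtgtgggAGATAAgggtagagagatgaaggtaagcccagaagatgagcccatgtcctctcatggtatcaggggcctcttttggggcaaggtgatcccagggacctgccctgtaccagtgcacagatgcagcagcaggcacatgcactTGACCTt
SORL1, shared, chr11:121349373-121349572: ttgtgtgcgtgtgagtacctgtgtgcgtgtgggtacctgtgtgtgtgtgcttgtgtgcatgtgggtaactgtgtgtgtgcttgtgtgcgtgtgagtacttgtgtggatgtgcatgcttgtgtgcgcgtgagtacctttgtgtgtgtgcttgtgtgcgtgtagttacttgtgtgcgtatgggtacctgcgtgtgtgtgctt
ESR1, DMSO-only, chr6:152196559-152196758: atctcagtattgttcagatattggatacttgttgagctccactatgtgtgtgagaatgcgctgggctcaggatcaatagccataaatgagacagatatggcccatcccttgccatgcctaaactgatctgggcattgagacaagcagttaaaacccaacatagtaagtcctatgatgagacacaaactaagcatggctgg
GREB1, DMSO-only, chr2:11676112-11676311: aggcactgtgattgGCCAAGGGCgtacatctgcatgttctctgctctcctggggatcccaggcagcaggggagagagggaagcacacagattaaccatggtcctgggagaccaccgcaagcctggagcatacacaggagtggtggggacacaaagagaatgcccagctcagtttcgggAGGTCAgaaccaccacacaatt
PGR, DMSO-only, chr11:100950724-100950923: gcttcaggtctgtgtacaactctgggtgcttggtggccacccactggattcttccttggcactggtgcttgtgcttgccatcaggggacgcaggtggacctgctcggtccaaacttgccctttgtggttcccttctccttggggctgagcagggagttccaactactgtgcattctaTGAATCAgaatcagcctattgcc
EFNA5, E2-only, chr5:106808314-106808513: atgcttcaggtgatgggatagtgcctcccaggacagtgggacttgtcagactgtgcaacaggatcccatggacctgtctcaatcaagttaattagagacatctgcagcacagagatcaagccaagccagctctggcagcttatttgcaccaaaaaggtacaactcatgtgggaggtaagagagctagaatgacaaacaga
IGSF3, E2-only, chr1:117235949-117236148: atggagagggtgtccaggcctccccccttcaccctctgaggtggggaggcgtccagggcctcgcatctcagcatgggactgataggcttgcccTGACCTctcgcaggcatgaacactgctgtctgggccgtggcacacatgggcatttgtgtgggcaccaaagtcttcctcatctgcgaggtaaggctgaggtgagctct
GATA3, E2-only, chr10:8441899-8442098: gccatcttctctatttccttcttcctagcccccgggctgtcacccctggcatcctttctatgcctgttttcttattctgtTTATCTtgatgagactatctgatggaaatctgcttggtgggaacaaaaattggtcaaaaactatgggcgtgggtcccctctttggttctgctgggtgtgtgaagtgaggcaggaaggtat

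The E2 library gave far fewer H3K4me1 peaks. The E2 list held 1960 peaks over 0.577 Mb against 6408 over 1.75 Mb under DMSO, a ratio of 0.306 in number and 0.330 in length. Mean fold enrichment at the summit, the ratio of ChIP pileup to local background, was 6.06 under E2 and 7.14 under DMSO. The E2 library was not the shallower one by the estimate that the lists allow, with a ratio of E2 to DMSO tags of 1.14. The genome-wide background that the peak caller used was 1.23 tags under E2 and 0.925 under DMSO, a ratio of 1.32, and its part in the lower peak number was not tested. The same contrast gave 22553 against 28411 H3K4me1 peaks in Ishikawa (ratio 0.794) and 29081 against 30774 H3K4me3 peaks in T-47D (ratio 0.945). As the only replicate spread in these lists, and for another target, RNAPII replicates of 1 treatment differed 1.85-fold under DMSO and 1.98-fold under E2, so that a gap of this kind between single libraries has no measured error.

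Of the 6961 regions, 1330 were shared (19.1%), 5032 were DMSO-only (72.3%) and 599 were E2-only (8.61%). Seen from each list, 21.5% of the DMSO peaks (95% exact binomial interval, 20.5 to 22.5) and 69.4% of the E2 peaks (67.3 to 71.5) overlapped the other list. These intervals and those below cover counting error only. In Ishikawa the same shares were 62.0% and 80.1%. Median width was 387.5 bp for shared regions, 217 bp for DMSO-only and 227 bp for E2-only regions. The 1 bp rule separated few borderline cases. Among 1407 overlapping pairs the smallest overlap was 6 bp, 5 pairs overlapped by under 20 bp, and the summits lay a median of 67 bp apart. Just outside the rule, 63 DMSO-only regions (1.25%) lay within 100 bp of an E2 peak and 45 E2-only regions (7.51%) within 100 bp of a DMSO peak. At 5000 bp these shares reached 24.4% and 51.8%. The DMSO list is the longer one, so these shares do not compare the classes.

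Peaks with lower p-values were shared more often in both lists. Under DMSO, 10.9% of peaks with a −log10 p-value from 10 to 15 were overlapped by an E2 peak, 15.4% from 15 to 20, 34.1% from 20 to 30 and 72.2% at 30 or more. Under E2 the same steps gave 57.5%, 69.5%, 85.2% and 29 of 29 peaks. In the highest step 164 of 227 DMSO peaks had an E2 counterpart. Ishikawa DMSO peaks were overlapped more often at each step, from 36.5% to 94.2%. When the DMSO list was shortened to its 1960 strongest peaks, 39.6% of the E2 peaks still overlapped one.

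**Figure D1:**
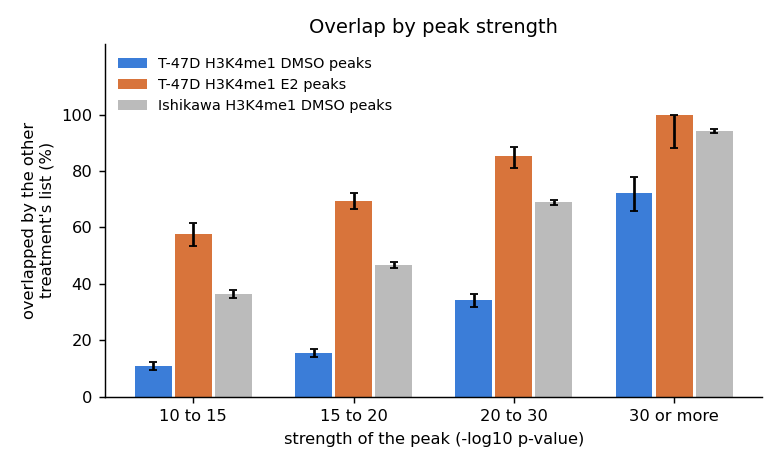
Share of peaks overlapped by the list of the other treatment (y axis, %) by the −log10 p-value of the peak (x axis), for T-47D H3K4me1 under DMSO and E2 and for Ishikawa H3K4me1 under DMSO. Bars are single libraries and error bars are 95% exact binomial intervals. The share of T-47D DMSO peaks rises from 10.9% to 72.2% and stays below the other bars at every strength.

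Within shared regions, enrichment was lower under E2. Median fold enrichment was 7.46 under DMSO and 5.90 under E2, and the median ratio of E2 to DMSO was 0.807 (−0.31 on the log2 scale, quartiles −0.53 and −0.11). Fold enrichment was higher under E2 in 212 of the 1330 regions (15.9%), and it was lower by at least 1.5-fold in 263 and higher by that much in 3. The median tag pileup at the summit was 33 under both treatments, whereas the local background was 3.63 under DMSO and 4.49 under E2, with a median ratio of 1.32. These pileups are tag counts not scaled to library depth, and the median background ratio was the same as the genome-wide one (1.32). The equal median pileup is thus not an unchanged signal relative to depth. T-47D H3K4me3 shifted the same way, with a median ratio of 0.842 and 22.5% of 23678 shared regions higher under E2, and Ishikawa H3K4me1 less, with 0.943 and 40.2% of 16265. With 1 library per treatment none of these shifts could be tested.

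Outside the shared regions each list had its own spread of strength. Median fold enrichment was 6.90 in DMSO-only regions (quartiles 5.98 and 7.97) and 6.02 in E2-only regions (quartiles 5.19 and 6.81). Under DMSO the DMSO-only median lay below that of shared regions, whereas under E2 shared regions (5.90, quartiles 5.20 and 6.83) and E2-only regions had nearly the same values. A region absent from a list has no value there, so enrichment at DMSO-only regions under E2 is unknown.

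**Figure D2:**
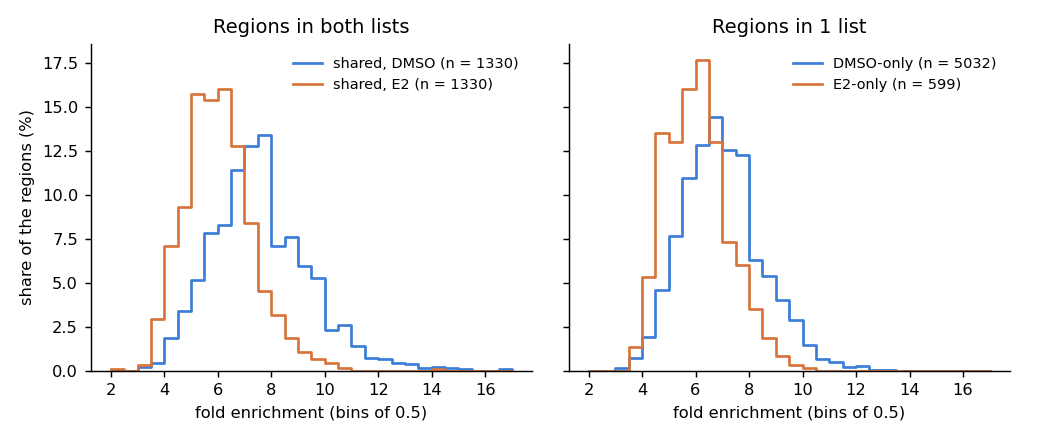
Distribution of fold enrichment (x axis, bins of 0.5) as a share of regions (y axis, %), for the 1330 shared regions under DMSO and E2 (left) and for the 5032 DMSO-only and 599 E2-only regions (right). In shared regions the E2 curve lies to the left of the DMSO curve, with medians of 5.90 and 7.46, and E2-only regions, with a median of 6.02, lie to the left of DMSO-only regions, with 6.90.

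The shared regions that held most strongly under both treatments were distal. Ranked by the lower of both values, the first was an intergenic region on chromosome 2 (chr2:89853072-89853393), with a fold enrichment of 13.2 under DMSO and 14.4 under E2, which 8 other lists of the series also covered. Its nearest protein-coding start site lay 685165 bp away, and whether repeats bear on this peak was not tested. Next came introns of SFMBT2, a Polycomb-related gene (11.0 and 10.4), TM9SF2 (12.5 and 10.3) and CACNA2D2 (11.4 and 9.94). An intron of TEAD1, a transcription factor of the Hippo pathway, held 9.60 and 9.84, and a region 5283 bp from the nearest start site and 18279 bp from LEP, the leptin gene, held 9.50 and 10.7. These regions carried no RNAPII peak in any of the 4 libraries. The intron of SORL1 (chr11:121349282-121349809) differed in that respect. Its fold enrichment was 14.9 under DMSO and 9.56 under E2, all 4 RNAPII libraries had a peak there, with fold enrichments of 7.72 and 5.91 under DMSO and 7.53 and 5.25 under E2, and H3K4me3, JUN and Ishikawa H3K4me1 lists covered it under both treatments.

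The 3 shared regions that were higher under E2 by at least 1.5-fold lay by ENDOU (4.46 under DMSO, 8.49 under E2), SPINT2, a serine protease inhibitor gene (5.03 and 7.95), and MYBL1, a MYB family transcription factor gene (4.63 and 7.13). In the opposite direction, the start site of ADIPOQ, the adiponectin gene, went from 9.48 to 3.82, a region 784 bp from the start of CTF1, a cytokine gene, from 16.8 to 7.56, and an intron of TNS3, a tensin gene, from 11.2 to 4.88. These regions were chosen after their values were seen, from the extremes of the ratio. At ADIPOQ the pileup fell from 63 to 52 tags while the background rose from 5.75 to 12.9.

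Strong DMSO-only peaks included the receptor gene itself. An intron of ESR1 (chr6:152196528-152196761, 5133 bp from the nearest ESR1 start site) had a fold enrichment of 12.3 under DMSO, with a pileup of 24 tags over a background of 1.03, and no E2 peak. No RNAPII, H3K4me3 or JUN list covered it. The other DMSO-only regions among the 10 highest ran from 12.3 to 13.5 and lay in introns of YBEY, RFTN2, FAM53B and TBC1D14, in a non-coding or untranslated exon of TRERF1, between genes near RBMS1 and PRELP, and at non-coding start sites near EDN1, the endothelin gene, and PHF14. Among E2-only regions the highest values ran from 8.89 to 10.3, in introns of the metalloprotease gene MMP16, EFNA5, TULP4, RAB11B, UBE2E1, RIN2 and CABLES1, and between genes near NUAK1, GPT2 and IGSF3. None of these 10 carried an RNAPII, H3K4me3 or JUN peak, and the TULP4 intron alone overlapped an Ishikawa H3K4me1 peak. The strongest E2-only peaks were thus weaker than the strongest DMSO-only ones, and 10 E2 peaks against 285 DMSO peaks reached a fold enrichment of 10.

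The 3 classes lay mostly away from start sites, in similar shares. Within 250 bp of an annotated start site lay 9.70% of shared regions (8.16 to 11.4), 8.88% of DMSO-only regions (8.11 to 9.70) and 8.35% of E2-only regions (6.26 to 10.9), with intervals that overlap. The median distance to a start site was 5312.5, 4777.5 and 4813 bp. T-47D H3K4me3 regions under DMSO lay within 250 bp in 65.9% and Ishikawa H3K4me1 regions in 11.9%. Summits fell in introns in 56.4% of shared, 54.6% of DMSO-only and 58.1% of E2-only regions, and between genes in 27.7%, 28.7% and 28.4%. Coding exons took 1.58%, 2.03% and 1.00%.

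**Figure D3:**
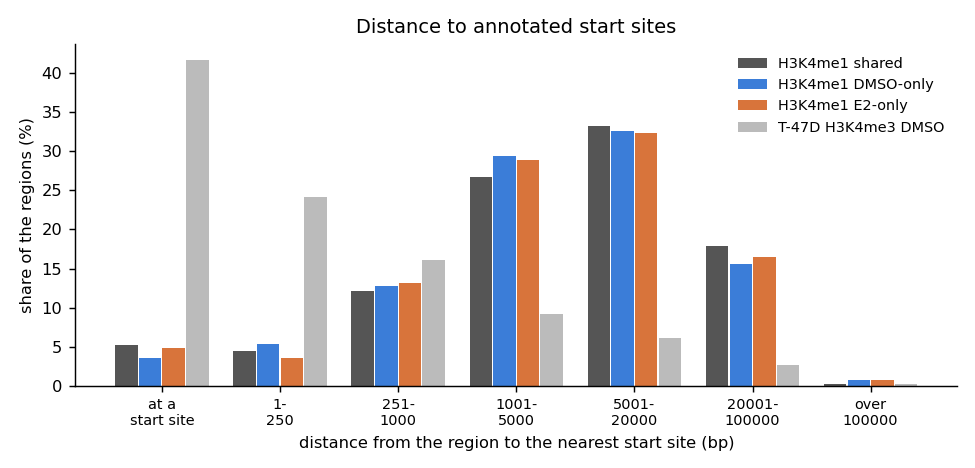
Distance from each region to the nearest annotated start site (x axis, bp) as a share of regions (y axis, %), for the 3 classes of T-47D H3K4me1 regions and for T-47D H3K4me3 under DMSO. The classes run side by side with about 33% of regions between 5000 and 20000 bp, while 41.7% of H3K4me3 regions lie at a start site.

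RNAPII covered shared regions most and E2-only regions least. An RNAPII peak overlapped 36.9% and 8.72% of shared regions in DMSO replicates 1 and 2 and 36.5% and 13.8% in E2 replicates 1 and 2. For DMSO-only regions the shares were 26.1% and 6.14% under DMSO and 28.6% and 9.02% under E2. For E2-only regions they were 18.2% and 4.17% under DMSO and 18.4% and 6.01% under E2. The order of the classes was the same in 4 of 4 libraries. Shared regions are also wider, and in equal windows of 100 bp either side of the summit the shared and DMSO-only shares drew together, 29.5% against 25.1% in DMSO replicate 1 and 4.89% against 5.66% in DMSO replicate 2, while E2-only regions stayed lowest in all 4 libraries. In these windows 4.51% of E2-only regions had a peak in DMSO replicate 2. RNAPII replicates of 1 treatment differed far more than the treatments did. The mean share was 2.33 points higher under E2 than under DMSO in shared regions, 2.65 points in DMSO-only and 1.00 point in E2-only regions, and none of these passed the exact two-sided permutation test (p = 1, 0.667 and 0.667 over 6 assignments, adjusted p = 1 for each of 3 tests). With 2 libraries against 2 the test cannot reach 0.05. In DMSO-only regions the E2 share was the higher one within both replicate numbers, by 2.42 and 2.88 points, but with RNAPII lists shortened to equal length the mean difference was −0.169 points. The sign of the difference changed in all 3 classes when DMSO replicate 2 or E2 replicate 1 was left out, to −11.8 and −9.06 points in shared, −7.34 and −7.11 in DMSO-only and −6.01 and −5.18 in E2-only regions.

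**Figure D4:**
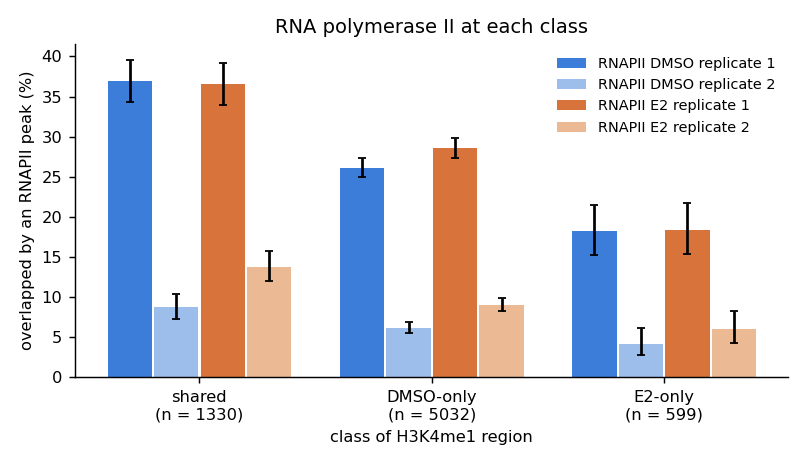
Share of H3K4me1 regions overlapped by an RNAPII peak (y axis, %) for each class (x axis) in each of the 4 RNAPII libraries. Error bars are 95% exact binomial intervals. Within a class the replicate 1 bars (18.2% to 36.9%) stand well above the replicate 2 bars (4.17% to 13.8%), and DMSO and E2 bars of the same replicate lie close together.

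Most regions had no RNAPII peak in any library, 54.5% of shared, 64.0% of DMSO-only and 75.5% of E2-only regions. All 4 libraries had a peak in 6.17%, 4.27% and 2.50%. DMSO-only regions over 1000 bp from a start site had RNAPII less often than those at promoters, 26.2% against 39.8% in E2 replicate 1 and 7.53% against 17.2% in E2 replicate 2. For E2-only regions the order turned in both replicate 2 libraries, where 1 of 50 promoter regions had a peak against 16 of 470 distal ones under DMSO and 25 of 470 under E2. A peak in both E2 libraries and neither DMSO library was found at 13 shared, 56 DMSO-only and 5 E2-only regions (0.977%, 1.11% and 0.835%, against 1.06% of all regions), and the reverse at 4, 14 and 1. The classes thus had this pattern in near-equal shares.

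The 56 DMSO-only regions with RNAPII in both E2 libraries alone included some near classical estrogen targets, and several in introns of GSE1. Of the GSE1 regions, some had the same RNAPII value (20.3) in E2 replicate 1. Of all 5032 DMSO-only regions, 79 were nearest to 1 of 32 estrogen-induced genes, and the 56 were not set against that share. The genes named here were chosen after their values were seen. Inside GREB1, an ER coregulator gene, lay a region at a non-coding start site, 5219 bp from the nearest GREB1 start site (chr2:11701879-11702050). There H3K4me1 had a fold enrichment of 8.97 under DMSO and no E2 peak, and RNAPII reached 23.8 and 16.5 in the E2 libraries. At an internal start site of PGR, the progesterone receptor gene (chr11:100934346-100934511), H3K4me1 was 6.28 under DMSO and RNAPII 12.9 and 8.80 under E2. In a non-coding exon 26301 bp from the start of SIAH2, a ubiquitin ligase gene, the values were 5.74 for H3K4me1 and 13.7 and 13.3 for RNAPII, and in FKBP4, a steroid receptor co-chaperone gene, 7.46 for H3K4me1 and 12.4 and 9.86 for RNAPII. In RARA, the retinoic acid receptor gene, H3K4me1 was 6.82 and RNAPII 10.6 and 8.15. At THBS1, the thrombospondin gene, lay 3 such regions. The one at an annotated start site inside the gene had 8.00 for H3K4me1 and 28.7 and 11.9 for RNAPII. Shared regions with the same RNAPII pattern lay by SCGB3A1 (H3K4me1 12.8 under DMSO and 8.10 under E2, RNAPII 37.6 and 15.4) and RNF223 (10.8 and 7.44, RNAPII 29.3 and 14.5). The 5 E2-only regions with this RNAPII pattern, where H3K4me1 was listed under E2 alone, were nearest to CACNG4 (4.55), DLG1 (4.70), ARF6 (6.38), FGD6 (6.99) and MYOF (4.81). The MYOF region (chr10:95203704-95203952) lay next to a DMSO-only region of 9.35 with the same RNAPII pattern (chr10:95203968-95204687). H3K4me1 was thus listed under both treatments at that site, without overlap. The class and the RNAPII pattern chose all of these regions, so their opposing or matching direction is not a result.

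H3K4me3 and JUN peaks overlapped shared regions most often and E2-only regions least, over full region widths, which are larger for shared regions. Equal windows were not computed for these lists. JUN, LSD1, MAX, MYC, RARA and TAF1 were mapped after 1 h of DMSO or E2, and the histone marks after 8 h. The SIN3A lists are from stripped and full media, not from DMSO and E2. H3K4me3 under DMSO covered 26.8% of shared, 14.2% of DMSO-only and 11.7% of E2-only regions, and H3K4me3 under E2 13.8%, 7.91% and 6.51%. JUN, an AP-1 subunit, covered 34.2%, 23.5% and 14.5% of them under DMSO (455, 1185 and 87 regions) and fewer under E2 (314, 756 and 60 regions). E2-only regions were thus covered more often by the DMSO lists than by the E2 lists of both targets, as the other classes were, and both E2 lists hold fewer peaks (29081 against 30774 for H3K4me3 and 24885 against 28703 for JUN), although that of JUN covers more sequence (17.6 against 16.7 Mb). H3K27me3 of DMSO cells, the Polycomb mark, covered 6.09%, 1.77% and 1.34%. LSD1, MAX, MYC, RARA, TAF1 and SIN3A lists, which held from 42 to 5645 peaks, each covered under 1% of any class. An Ishikawa H3K4me1 peak of DMSO cells overlapped 32.9% of shared regions (30.4 to 35.5), 25.8% of DMSO-only regions (24.6 to 27.1) and 24.9% of E2-only regions (21.5 to 28.5), so most regions of each class were not listed in the endometrial line.

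The single-arm site, AP-1 and AP-2 motifs had similar shares in each class. GATA and forkhead shares were highest in E2-only regions, with intervals that overlap those of DMSO-only regions. At least 1 of the 6 motifs lay within 150 bp of the summit in 47.1% of shared (44.4 to 49.9), 49.7% of DMSO-only (48.3 to 51.1) and 52.4% of E2-only regions (48.3 to 56.5), against 49.5% of all 6961 regions and 45.5% of T-47D H3K4me3 regions of the same length. The single-arm site AGGTCA was found in 24.7%, 23.9% and 25.2%, against 24.2% of all regions, and the AP-1 motif in 8.95%, 9.56% and 8.18%, against 9.32%. The GATA motif was found in 12.9% of E2-only (10.3 to 15.8), 8.50% of shared (7.05 to 10.1) and 10.1% of DMSO-only regions (9.31 to 11.0), against 10.1% of all regions. The forkhead motif lay in 2.48% of shared (1.71 to 3.47), 3.44% of DMSO-only (2.95 to 3.98) and 4.67% of E2-only regions (3.13 to 6.69), against 3.36%. Base composition moved with these, with a median GC content of 53.5% in shared, 52.8% in DMSO-only and 50.2% in E2-only windows, and its part in the motif shares was not tested. The AP-2 motif was found in 14.4%, 14.9% and 14.0%, against 24.8% of H3K4me3 regions. A full estrogen response element without mismatch lay in 1 shared and 4 DMSO-only regions and in 0 of 599 E2-only regions, which allows a share of up to 0.501% (3 counts of the total). A match is a description of the letters and not a bound site.

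The full elements lay near STARD10, GRIK4, COL18A1, TCL1B and CSRNP1, with an H3K4me1 fold enrichment under DMSO of 6.08, 7.44, 6.71, 6.92 and 7.31, and the one near TCL1B held 5.69 under E2. The match is shown in capitals with 20 bases of GRCh37 on either side for the 4 that touch no exon.
STARD10, DMSO-only, chr11:72493932-72493984: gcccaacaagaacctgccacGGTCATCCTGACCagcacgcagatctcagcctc
GRIK4, DMSO-only, chr11:120683742-120683794: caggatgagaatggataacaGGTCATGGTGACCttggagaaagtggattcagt
COL18A1, DMSO-only, chr21:46806835-46806887: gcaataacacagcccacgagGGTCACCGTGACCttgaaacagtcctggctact
TCL1B, shared, chr14:96159411-96159463: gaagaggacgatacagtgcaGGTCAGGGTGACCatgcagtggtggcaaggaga

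Most genes with a region of a class had only 1 of that class, and few genes had many. By the nearest protein-coding start site, shared regions fell to 791 of 20136 genes (3.93%), DMSO-only regions to 2396 (11.9%) and E2-only regions to 492 (2.44%), and 13.7% of genes had a region of any class. A single region of the class fell to 553 of the 791 genes, 1378 of the 2396 and 413 of the 492. At least 5 regions of the class fell to 30, 185 and 1 genes. Of the 492 genes with an E2-only region, 360 (73.2%) also had a shared or DMSO-only region. GSE1, a coregulator gene on chromosome 16, led every class with 56 shared, 62 DMSO-only and 5 E2-only regions within 99095 bp of its start sites, and a fold enrichment up to 14.3 under DMSO and 8.96 under E2. ZMIZ1, a coactivator gene, followed with 53 regions, of which 10 were shared, and MYC, the proto-oncogene, with 37, of which 6 were shared, all of them at least 67997 bp from a MYC start site. CUEDC1 had 33, GRIK4 36, TBL1XR1, a nuclear corepressor subunit gene, 35, and OPA1 and KCNMA1 32 each. C2CD3 had 4 E2-only regions, 1 shared region and no DMSO-only region.

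Of 32 estrogen-induced genes, 10 were nearest to a shared region (31.2%), 20 to a DMSO-only region (62.5%) and 4 to an E2-only region (12.5%), against 3.93%, 11.9% and 2.44% of all genes, with a median of 1 region per gene against 0 over all genes. Their 25 shared, 79 DMSO-only and 9 E2-only regions split much as all 1330, 5032 and 599 regions did. These regions went to the nearest gene at any distance. With any region within 100 kb, the 3 gene counts were 9, 24 and 4 of 32, against 2231, 5899 and 1294 of all 20136 genes. GREB1 had 2 DMSO-only regions (fold enrichment 7.67 and 8.97), TFF3, a trefoil factor, 1 (7.72), XBP1, a factor of the secretory stress response, 2 (up to 8.76) and IGF1R, a growth factor receptor, 5 (up to 8.30). PGR had 1 shared region, with 6.48 under DMSO and 6.51 under E2, and 3 DMSO-only regions. The 4 genes with E2-only regions were MYC (4), CCND1, the cyclin D1 gene (2), RARA (2) and STC2 (1). At CCND1 an E2-only region of 4.56 (chr11:69458857-69459114) lay 377 bp from a start site. A DMSO-only region of 6.23 lay close by (chr11:69459428-69459593), 948 bp from a start site. At STC2, a secreted glycoprotein gene, the shared region had 6.54 under DMSO and 7.14 under E2. EGR3, an early growth response factor, had 2 shared regions and none of another class. TFF1, CTSD, BCL2 and 7 other members had no region of any class.

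Of 16 luminal transcription factor genes, 6 were nearest to a shared (37.5%), 14 to a DMSO-only (87.5%) and 6 to an E2-only region (37.5%), with a median of 5 regions per gene. Regions went to the nearest gene at any distance. Within 100 kb the 3 counts were 6, 12 and 3, against 2231, 5899 and 1294 of all 20136 genes. GRHL2, an epithelial factor, had 6 shared, 14 DMSO-only and 4 E2-only regions, EHF 4, 11 and 3, and TFAP2C, the AP-2 gamma gene, 4, 8 and 1. GATA3 had 8 DMSO-only regions, of which all but 1 lay at least 237754 bp away, and 1 E2-only region of 6.99 at 341637 bp, and SPDEF, an ETS factor, had 9 that were all DMSO-only (up to 7.54). FOXA1 had 1 DMSO-only region (6.71). TRPS1, a GATA-type repressor, had 6 DMSO-only regions (up to 10.7) and 2 E2-only regions (8.11 and 6.09), both of which all 4 RNAPII libraries covered. Of 17 luminal epithelial genes, 7, 10 and 4 had a region of the 3 classes (9, 14 and 8 within 100 kb), with KRT7 at 6, 11 and 3 regions and PRLR, the prolactin receptor gene, at 2, 13 and 1. Of 16 basal or mesenchymal genes, 0 had a shared or E2-only region and 5 had a DMSO-only one (KRT17, TP63, EGFR, CD44 and SPARC), 31.2% against 11.9% of all genes. The count of 0 stands against 3.93% and 2.44% of all genes with a shared and an E2-only region. With any region within 100 kb, 2 had a shared and 1 an E2-only region, against 2231 and 1294 of all 20136 genes. In a list of 16 genes these counts are near the shares over all genes. Of 10 AP-1 subunit genes, FOS had 1 shared region and BATF3 1 DMSO-only region. Of 19 genes of the H3K4 methylation machinery, WDR5, a core subunit, had 2 shared regions and 1 DMSO-only region and KDM5B, a demethylase, 1 DMSO-only region. Shared and DMSO-only regions thus fell to 10% and 10% of the AP-1 genes and to 5.26% and 10.5% of the methylation genes. Over all genes the shares were 3.93% and 11.9%, and such small counts do not set these lists apart. Among factors of Mullerian development, LHX1 had 1 shared region, with 8.00 under DMSO and 7.67 under E2. Among the genes whose regulatory elements the study perturbed in Ishikawa cells, TGFA, a growth factor gene, had 2 DMSO-only regions (7.66 and 9.65), and PEG10 had none.

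The regions were spread very unevenly over chromosomes. Regions of any class numbered 7.83 per Mb on chromosome 17, 5.36 on 20, 5.35 on 11 and 4.69 on 16, but 0.646 on chromosome 2, 0.417 on 13, 0.397 on 18, 0.324 on 4 and 0.187 on X. Ishikawa H3K4me1 under DMSO had 8.49 per Mb on chromosome 2, 8.72 on 18 and 6.41 on 4 against 11.7 on 11 and 12.1 on 16. Its extremes were those of T-47D, with 0.316 on X and 21.0 on 17. The share of DMSO peaks that an E2 peak overlapped was 28.8% on chromosome 16, 28.0% on 3 and 27.7% on 11. It was 9.09% on 2, 8.24% on 22, 8.06% on 4, 7.41% on 15 and 3.57% of 28 peaks on X. The local background at DMSO peaks had a median of 3.77 tags on chromosomes 3, 11 and 16. Its median was 1.75 on 2 and 22, 2.26 on 4 and 15 and 1.69 on X. Median pileup ran the same way, 32, 31 and 30 tags on chromosomes 3, 11 and 16 against 22, 21, 23, 24 and 21 on 2, 22, 4, 15 and X. The part of background and pileup in the uneven spread was not tested.

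**Figure D5:**
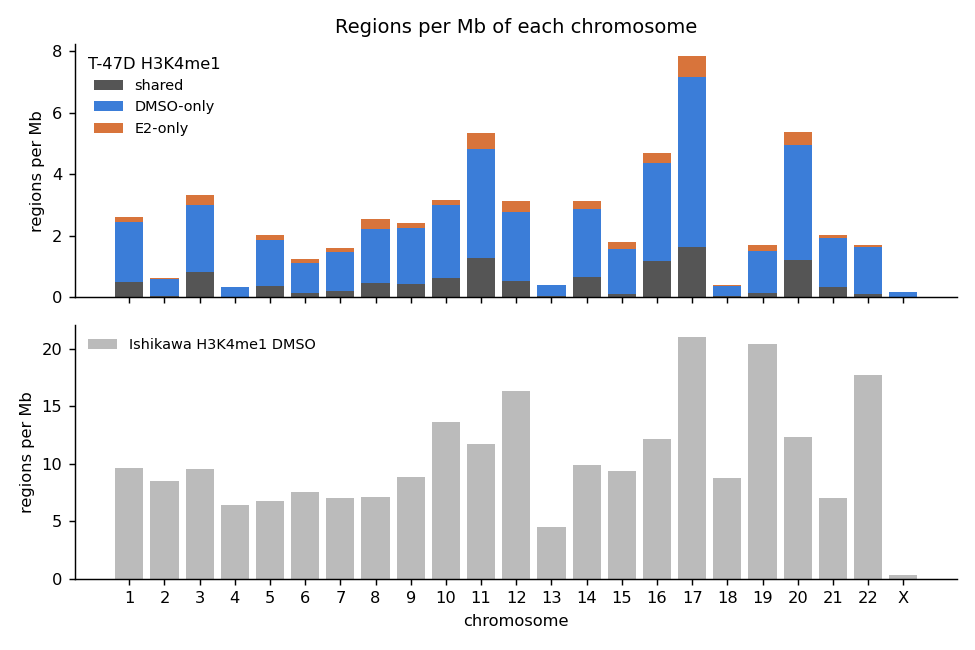
H3K4me1 regions per Mb (y axis) by chromosome (x axis), for T-47D stacked by class (top) and for Ishikawa under DMSO (bottom), with a separate scale for each panel. T-47D ranges from 0.187 on X to 7.83 on 17, and Ishikawa from 0.316 on X to 21.0 on 17. T-47D also stays under 1 per Mb on chromosomes 2, 4, 13 and 18, where Ishikawa has 4.54 to 8.72 per Mb.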

How the data were processed

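H3K4me1 was mapped by ChIP-seq in 1 DMSO and 1 E2 library of T-47D cells. Reads with a single placement on hg19 (the GRCh37 build) were kept by the authors with Bowtie 1.1.2, and MACS2 2.1.0.20140616 called peaks library by library (versions per the submitters' processing notes). The deposited columns are a fold enrichment (summit pileup as a ratio to background), −log10 p-values, −log10 q-values and a score of 10 times the −log10 p-value, cut to a whole number. The lists reach down to a −log10 p-value of 10.0, so numbers depend on depth and enrichment.

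Overlaps, distances and counts were computed in Python 3.11.15 with pandas 2.3.3, numpy 2.4.6 and scipy 1.17.1, and figures in matplotlib 3.10.9. GENCODE 44 placed on GRCh37 gave genes and start sites, promoters reached 250 bp to each side, and sequences from the same genome (samtools 1.23.1). Coordinates are 1-based. Pileup and background were solved from the fold enrichment and p-value of each peak, and every T-47D H3K4me1 pileup came out whole within 0.001 of the p-value. In the Ishikawa H3K4me1 list under E2 only 1.14% came out whole, and its pileups were not used. Its peak number, overlaps and fold enrichment were compared as deposited, so they may not be like for like. Tag numbers assume 2700 Mb of mappable genome and the narrowest peak as fragment length. The scripts were tested on simulated data. Intervals are exact (Clopper-Pearson, 95%).

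Named regions were the 10 of each class with the highest fold enrichment (shared regions by the lower value), named genes the 10 with most regions per class and members of 8 gene lists, and sequences up to 3 named regions per class. Other regions were named after their values were seen, as stated. The classes, members and lists were chosen with earlier results of these data known. RNAPII shares were compared by the exact permutation test. No sample was dropped or imputed. Some genes that the rule names are not reported here.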

Additional observations from a re-analysis of the deposited data

How the results depend on the processing

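The ratio of E2 to DMSO peak numbers stayed within 1.5 times of 0.306 when peaks needed a −log10 p-value of 15 (0.288), were joined within 1000 bp (0.334), lay at least 1000 bp from start sites (0.307) or were counted by length (0.330), and every peak was wider than 100 bp. At a fold enrichment of at least 10 it was 0.0351. The share of E2 peaks overlapping a DMSO peak was 66.8% at a −log10 p-value of 15, 52.2% with a reciprocal overlap of 50%, 79.2% when peaks within 1000 bp counted as shared and 39.6% against the shortened DMSO list.

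Near start sites the shared, DMSO-only and E2-only shares were 21.9%, 21.6% and 21.5% within 1000 bp, and 6.02%, 6.18% and 5.34% with protein-coding start sites alone. With peaks within 1000 bp counted as shared, 13.4% of shared regions lay within 250 bp. By score in place of fold enrichment, 27.2% of shared regions were higher under E2. With other peaks within 1000 bp, at least 1 list other than RNAPII covered 83.8%, 72.1% and 68.3% of the classes, against 61.4%, 48.5% and 41.1%. Genes with a region within 100 kb numbered 2231, 5899 and 1294. Within 250 bp of the summit, 66.1%, 68.9% and 72.0% held a motif. Wider windows raise these shares by construction.

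The RNAPII difference between E2 and DMSO depended on single libraries. Leaving out 1 library each time gave −11.8 to 16.4 points for shared, −7.34 to 12.6 for DMSO-only and −6.01 to 8.01 for E2-only regions, with the sign set by which replicate was left out. With RNAPII lists shortened to 21291 peaks it was 0.940, −0.169 and −0.918 points. Within 100 bp of the summit, an alternative chosen after seeing the data, it was 2.63, 2.52 and 0.668 points. The replicate block, the mean of the differences within a number, left it at 2.33, 2.65 and 1.00 points by construction. Replicate 1 libraries deviated together (r = 0.39 over 6961 regions), but with 2 pairs the samples share only a number.

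Counts of peaks in 1 library per treatment have no replicate error. RNAPII and JUN preceded H3K4me1 in treatment time (1 h against 8 h), so they describe a different time than H3K4me1.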
